A study of Rattus norvegicus with 12 samples.

Results

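Thrombospondins and other matricellular proteins were examined in rat left atrium and left ventricle after a volume load. The set named 10 genes, Thbs1, Thbs2, Thbs4, Ccn1, Ccn2, Postn, Spp1, Tnc, Sparc and Cthrc1, and took each probe set whose single gene symbol was one of them, with the older names Cyr61 for Ccn1 and Ctgf for Ccn2 accepted. A probe set of a single symbol was found for 9 of the 10, among 14217 genes with such a probe set on the array; Thbs1 was not analysed here. The genes were chosen by what is known of the family together with measured values of these same arrays, taken here to be chiefly the atrial difference between shunt and sham rats. For these genes that difference, and every contrast that shares its atrial arrays, the chamber difference of sham rats included, is therefore given as a description with its interval and no test, and only the ventricular difference is tested. The lists of other genes were also chosen with earlier results of these data known. Calls and adjusted p-values of listed genes are therefore given as descriptions too.

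The 4 groups were left atrium of shunt rats, left atrium of sham rats, left ventricle of shunt rats and left ventricle of sham rats, with 3 arrays each. All rats were male Sprague Dawley, taken 28 days after an aorto-caval shunt, a surgical opening between aorta and vena cava that returns extra blood to the heart, or after a sham operation; the sources do not state their age. Each array held RNA of a pool of 2 tissues, the appendage of the left atrium or the free wall of the left ventricle, so the spread between arrays is a spread between pools and not between single rats. The tissue was whole, and fewer cells of a type cannot be told apart from less RNA per cell. The number of arrays limits the precision of every value.

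Matricellular proteins are secreted into the extracellular matrix but do not build it: they bind cell surface receptors, growth factors and matrix fibres and change how cells respond to their surroundings. Most are scarce in the healthy adult heart and are known to be made again under mechanical load or after injury, largely by fibroblasts and in part by myocytes. Thrombospondins are calcium-binding multimers, of which Thbs4 also acts inside the cell and in mouse heart is linked to the ER stress factor Atf6. Ccn1 and Ccn2 (connective tissue growth factor) are signalling proteins of the CCN family and are widely used as readouts of YAP and TEAD, the transcription machinery that responds to stretch. Postn (periostin), Tnc (tenascin-C), Spp1 (osteopontin) and Sparc link cells, integrins and collagen, and Cthrc1 is a secreted protein of activated fibroblasts.

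Promoter sequence, the 250 bases before the annotated start in RefSeq's table for assembly GRCr8, was matched by symbol for 8 of the 10 genes and is shown for both CCN genes, whose regulation by TEAD is textbook knowledge, and for the 2 other measured genes with the same motif. All 4 lie on the minus strand of their chromosome and are written 5′ to 3′ along the gene: Ccn2 at chr1:22624615-22624864, Ccn1 at chr2:237225690-237225939, Thbs4 at chr2:25760346-25760595 and Sparc at chr10:40038817-40039066. Capitals mark the TEAD motif GGAATG, or CATTCC on the other strand.
Ccn2: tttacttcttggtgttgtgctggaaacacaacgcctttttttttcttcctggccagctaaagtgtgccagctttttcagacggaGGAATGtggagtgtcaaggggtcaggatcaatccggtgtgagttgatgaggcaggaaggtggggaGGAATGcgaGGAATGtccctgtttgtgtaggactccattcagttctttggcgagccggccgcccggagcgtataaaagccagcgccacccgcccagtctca
Ccn1: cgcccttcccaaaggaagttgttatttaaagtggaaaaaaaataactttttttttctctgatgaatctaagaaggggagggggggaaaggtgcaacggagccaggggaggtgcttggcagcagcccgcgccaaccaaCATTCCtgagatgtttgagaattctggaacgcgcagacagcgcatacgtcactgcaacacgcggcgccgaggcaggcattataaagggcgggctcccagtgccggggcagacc
Thbs4: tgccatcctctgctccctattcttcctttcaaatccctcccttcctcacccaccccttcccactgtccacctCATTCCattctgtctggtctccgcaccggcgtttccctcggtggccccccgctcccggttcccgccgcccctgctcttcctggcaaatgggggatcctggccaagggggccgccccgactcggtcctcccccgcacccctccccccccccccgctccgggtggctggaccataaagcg
Sparc: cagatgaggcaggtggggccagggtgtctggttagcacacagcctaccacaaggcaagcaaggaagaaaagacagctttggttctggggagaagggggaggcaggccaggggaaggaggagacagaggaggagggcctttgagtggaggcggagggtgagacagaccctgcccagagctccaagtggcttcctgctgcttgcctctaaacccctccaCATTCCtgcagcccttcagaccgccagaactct

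The Ccn2 promoter held 3 matches, whose first bases lay 166, 101 and 92 bases before the start. Ccn1 held 1 match at 113 bases, Thbs4 1 at 178 bases and Sparc 1 at 33 bases. Thbs1 held 1 match at 47 bases, and Postn, Spp1 and Tnc held none in this window. The motif occurred in 12.1% of the 33469 promoters of the table, and 3 or more matches, as in Ccn2, in 0.0807% of them. The Smad motif CAGAC, or GTCTG on the other strand, was found in 7 of the 8 promoters and in 42.9% of all promoters of this length. A match is a string of letters and was not tested as a binding site.

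The labelled chambers carried their defining markers. All 5 atrial myocyte markers (Myl7, Myl4, Sln, Nppa and Nr2f2) were called higher, and all 5 ventricular ones (Myl2, Myl3, Irx4, Myh7 and Hey2) lower, in left atrium than in left ventricle of sham rats. Atrial shunt array 3 stood apart, with a root mean square deviation of 0.200 from its group mean on the log2 scale, against 0.0913 to 0.163 on the other 11 arrays. On the hexokinase control probe sets its signal at the 3′ end exceeded that at the 5′ end by the most, a gap that grows as the 5′ end of the RNA is lost: 1.44, against 0.80 and 0.94 on atrial shunt arrays 1 and 2, 1.01 to 1.10 on the atrial sham arrays and 0.82 to 1.23 on the ventricular ones. Among the 9 measured genes, atrial shunt array 3 was the lowest of its group in 8 and atrial shunt array 1 the highest in 7, and in the ventricle shunt array 2 was the highest of its group in 7. For the genes of the set, the atrial differences are given below also without single arrays.

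**Figure D1:**
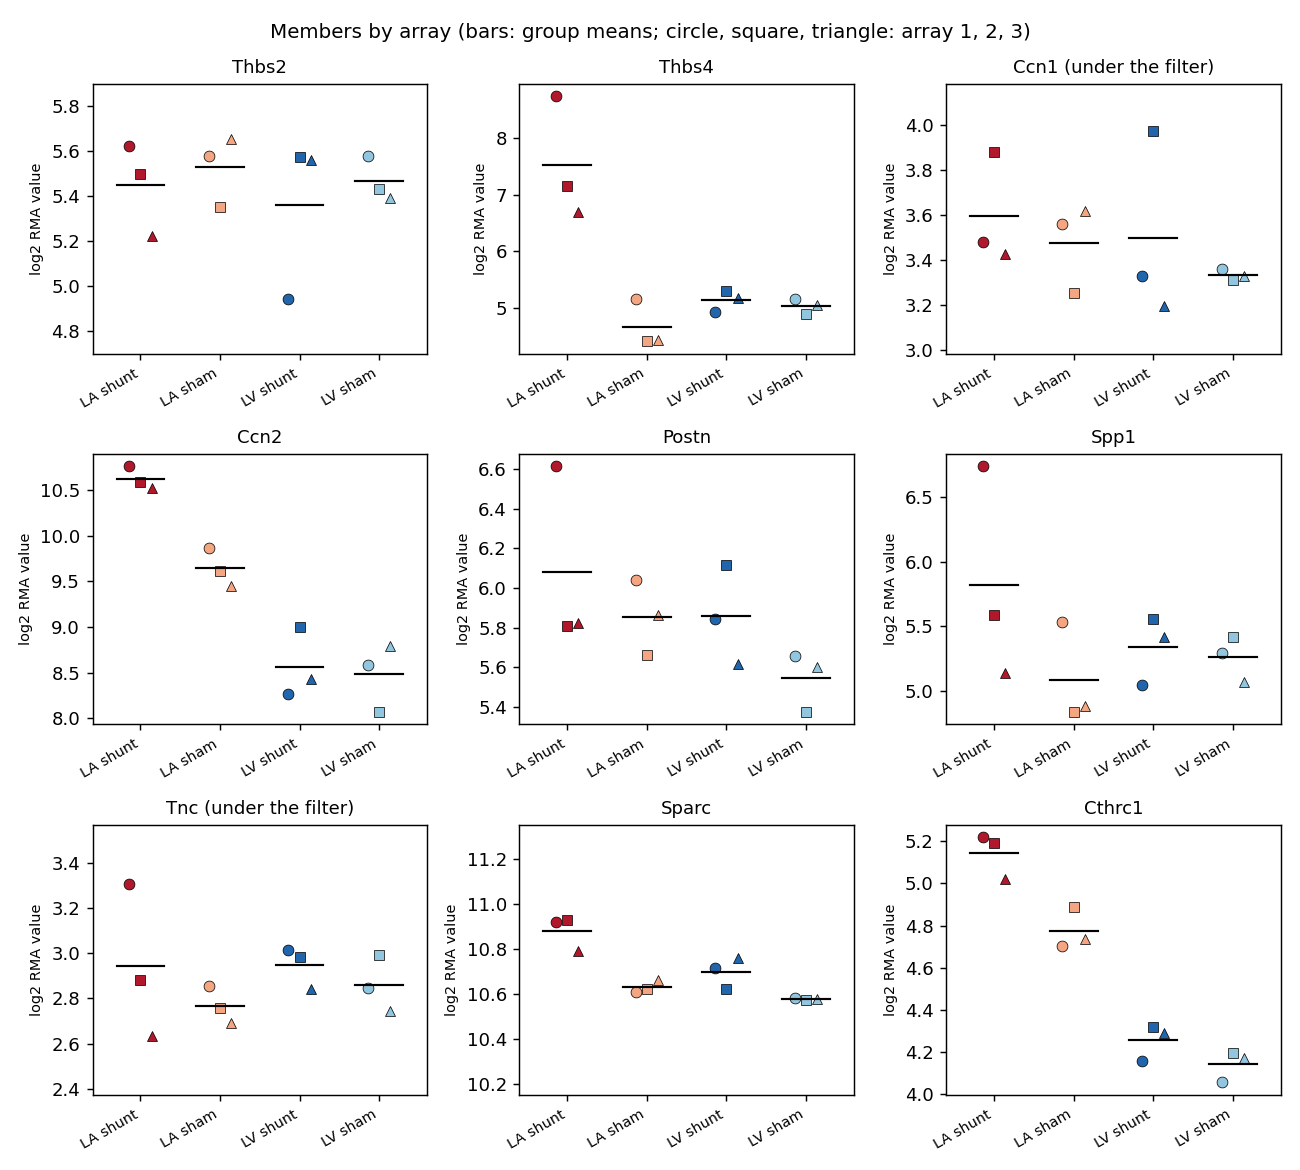
Deposited log2 RMA value of each of the 9 measured genes (vertical axis, a scale of its own in each panel) on the 12 arrays, with circles, squares and triangles for arrays 1, 2 and 3 of a group and a bar at the group mean. Thbs4, Ccn2, Sparc and Cthrc1 on the atrial shunt arrays lay above all other arrays, Sparc only narrowly. Thbs2, Postn and Spp1 overlapped between shunt and sham arrays in both chambers.

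Thbs4 showed the widest range of the family. On the log2 scale of the deposited RMA values, where a step of 1 is a doubling of the signal, it had 8.75, 7.15 and 6.69 on the atrial shunt arrays, against 5.16, 4.40 and 4.43 on the atrial sham arrays. In the ventricle it had 4.93, 5.30 and 5.17 on the shunt arrays, against 5.15, 4.89 and 5.04 on the sham arrays. Every atrial shunt array lay above all 9 other arrays, and the other 3 groups overlapped with each other. Atrial shunt array 1 was 4.18-fold above array 3 of the same group, a wider gap than within any other group, where the highest array was 1.19-fold to 1.69-fold above the lowest.

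In mean level the groups of Thbs4 ran from atrial shunt, 7.53 ± 1.08 (SD, n = 3), through ventricular shunt, 5.13 ± 0.19, and ventricular sham, 5.03 ± 0.13, to atrial sham, 4.67 ± 0.43. The atrial difference, shunt minus sham, was 2.86 ± 0.40 (SE of the limma fit over all 12 arrays, 95% interval 1.98 to 3.75), a ratio of 7.27 (3.94 to 13.4), and it ranked first of the 18625 probe sets tested. Without atrial shunt array 1 the difference was 2.25, and without atrial shunt array 3 it was 3.28. With the hexokinase gap as a covariate it was 2.87. Fitted on the atrial arrays alone, the SE of the atrial difference was 0.50, wider than the 0.40 of the common fit. The direction was the same without any single array, and the size depended mostly on which atrial shunt arrays were kept.

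In the ventricle the shunt minus sham difference of Thbs4 was 0.11 ± 0.40 (SE, n = 3 per group, 95% interval -0.78 to 0.99, limma adjusted p = 0.93), and the shunt and sham arrays overlapped. The common fit takes 1 spread over all groups, the wide atrial shunt group included; fitted on the ventricular arrays alone, the SE was 0.11 and the adjusted p was 0.707. The atrial minus the ventricular effect was 2.76 ± 0.57 (95% interval 1.51 to 4.01), the largest of the 18625 probe sets, and it was 2.14 without atrial shunt array 1. In sham rats the atrial minus ventricular difference was -0.36 ± 0.40 (95% interval -1.24 to 0.52), and the arrays of the chambers overlapped. In shunt rats the same difference was 2.40 ± 0.40, and 1.78 to 2.82 without single arrays.

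Thbs2, the other measured thrombospondin, which is known to bind matrix metalloproteinases and to limit vessel growth, had overlapping groups. It had 5.62, 5.50 and 5.22 on the atrial shunt arrays, against 5.58, 5.35 and 5.65 on the atrial sham arrays, and 4.94, 5.57 and 5.56 on the ventricular shunt arrays, against 5.58, 5.43 and 5.39 on the ventricular sham arrays. No group stood apart. The shunt minus sham difference was -0.08 ± 0.16 in the atrium (95% interval -0.43 to 0.27, with the sign turned, 0.03, without atrial shunt array 3) and -0.11 ± 0.16 in the ventricle (95% interval -0.46 to 0.24, adjusted p = 0.802). As ratios of shunt to sham the intervals ran from 0.741 to 1.21 in the atrium and from 0.727 to 1.18 in the ventricle. Thbs3, a further thrombospondin that was no member of the set, had 5.80, 5.74 and 5.80 on the atrial shunt arrays, against 5.80, 5.78 and 5.74 on the atrial sham arrays.

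Ccn2 was high in the atrium of both operations and highest in that of shunt rats. It had 10.76, 10.58 and 10.52 on the atrial shunt arrays, against 9.86, 9.62 and 9.44 on the atrial sham arrays. Its ventricular values were 8.27, 8.996 and 8.43 on the shunt arrays, against 8.58, 8.07 and 8.80 on the sham arrays. The order of the group means was atrial shunt (10.62 ± 0.12, SD, n = 3), atrial sham (9.64 ± 0.21), ventricular shunt (8.57 ± 0.38) and ventricular sham (8.48 ± 0.37), and of these neighbours only the ventricular groups overlapped. The atrial difference, shunt minus sham, was 0.98 ± 0.20, a ratio of 1.97 (95% interval 1.45 to 2.69), and it lay between 0.88 and 1.09 without any single array.

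In the ventricle the shunt minus sham difference of Ccn2 was 0.08 ± 0.20 (95% interval -0.36 to 0.53, adjusted p = 0.885). Its sign turned without ventricular shunt array 2 (-0.13) and without ventricular sham array 2 (-0.12). The atrial minus the ventricular effect was 0.90 ± 0.29 (95% interval 0.26 to 1.53). In sham rats Ccn2 was higher in atrium than in ventricle by 1.16 ± 0.20 (SE, n = 3 per group), a ratio of 2.23 (95% interval 1.64 to 3.04), in all 3 arrays against all 3. This chamber difference lay between 0.95 and 1.32 without single arrays. In shunt rats it was 2.05 ± 0.20, and 1.91 to 2.27 without single arrays.

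Ccn1, like Ccn2 a textbook TEAD target, lay too low on this array to be tested. Its mean over the 12 arrays was 3.48, against the minimum of 4.01, the 40th percentile of the array, that was set for a test. It had 3.48, 3.88 and 3.43 on the atrial shunt arrays, against 3.56, 3.25 and 3.62 on the atrial sham arrays, and 3.33, 3.97 and 3.19 on the ventricular shunt arrays, against 3.36, 3.31 and 3.33 on the ventricular sham arrays. The groups overlapped in both chambers. In a fit without the minimum its difference, shunt minus sham, was 0.12 ± 0.18 in the atrium and 0.16 ± 0.18 in the ventricle.

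Cthrc1, which in injured mouse heart marks activated fibroblasts, had a graded pattern at a low level. It had 5.22, 5.19 and 5.02 on the atrial shunt arrays, against 4.70, 4.89 and 4.73 on the atrial sham arrays. Ventricular values were 4.16, 4.32 and 4.29 on the shunt arrays, against 4.05, 4.19 and 4.17 on the sham arrays. Atrial groups lay above ventricular ones without overlap, atrial shunt lay above atrial sham without overlap, and the ventricular groups overlapped. The atrial difference, shunt minus sham, was 0.37 ± 0.08, a ratio of 1.29 (95% interval 1.14 to 1.46), and it lay between 0.33 and 0.43 without single arrays. In the ventricle the difference was 0.11 ± 0.08 (95% interval -0.06 to 0.29, adjusted p = 0.537). In sham rats the atrium was higher than the ventricle by 0.64 ± 0.08 (SE, n = 3 per group, 95% interval 0.46 to 0.81), a ratio of 1.55, in all 3 arrays against all 3. In shunt rats this difference was 0.89 ± 0.08, and 0.84 to 0.95 without single arrays. The ventricular sham mean of 4.14 lay near the minimum for a test, 4.01.

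Sparc, a collagen-binding protein that cells need to assemble fibrillar collagen, was measured by 2 probe sets, both far above the minimum. The probe set of higher mean had 10.92, 10.93 and 10.79 on the atrial shunt arrays, against 10.61, 10.62 and 10.66 on the atrial sham arrays, and 10.71, 10.62 and 10.76 on the ventricular shunt arrays, against 10.58, 10.57 and 10.58 on the ventricular sham arrays. Shunt arrays lay above sham arrays in both chambers on both probe sets. The atrial difference, shunt minus sham, was 0.25 ± 0.06 on this probe set, 0.22 to 0.29 without single arrays, and 0.26 ± 0.06 on the other. In the ventricle it was 0.12 ± 0.06 (95% interval -0.02 to 0.26, adjusted p = 0.396) and, on the other probe set, 0.21 ± 0.06 (95% interval 0.07 to 0.35, adjusted p = 0.177). Neither ventricular difference passed the threshold. The chamber difference of sham rats, atrium minus ventricle, was 0.05 ± 0.06 (95% interval -0.08 to 0.19) and, on the other probe set, 0.14 ± 0.06 (95% interval -0.00093 to 0.27).

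Spp1, an integrin and CD44 ligand made by macrophages and stressed myocytes, varied mostly within its groups. It had 6.74, 5.59 and 5.14 on the atrial shunt arrays, against 5.53, 4.84 and 4.88 on the atrial sham arrays. Ventricular values of Spp1 were 5.04, 5.55 and 5.42 on the shunt arrays, against 5.29, 5.42 and 5.07 on the sham arrays. Atrial shunt array 1 was the highest of all 12, atrial shunt array 3 lay inside the sham range, and the groups overlapped in both chambers. The atrial difference, shunt minus sham, was 0.74 ± 0.33 (95% interval 0.02 to 1.46), and it was 0.28 without atrial shunt array 1 and 1.08 without atrial shunt array 3. In the ventricle it was 0.08 ± 0.33 (95% interval -0.65 to 0.80, adjusted p = 0.939), and between the chambers of sham rats -0.18 ± 0.33, atrium minus ventricle (95% interval -0.90 to 0.54). Of the macrophage markers, 7 of 8 were above the minimum (Adgre1 was not) and none was called in either shunt comparison. The mean of these 7 was 6.23 to 6.84 on the atrial shunt arrays, against 6.42 to 6.56 on the atrial sham arrays, and their part in the Spp1 values was not tested.

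Postn, a matrix protein of activated fibroblasts that promotes collagen cross-linking, had 6.61, 5.81 and 5.83 on the atrial shunt arrays, against 6.04, 5.66 and 5.87 on the atrial sham arrays. In the ventricle it had 5.84, 6.12 and 5.62 on the shunt arrays, against 5.66, 5.37 and 5.60 on the sham arrays. The groups overlapped in both chambers, with atrial shunt array 1 and ventricular shunt arrays 1 and 2 above the sham range of their chamber. Its difference, shunt minus sham, was 0.23 ± 0.20 in the atrium (95% interval -0.21 to 0.67) and 0.31 ± 0.20 in the ventricle (95% interval -0.12 to 0.75, adjusted p = 0.497). The atrial difference was -0.04 without atrial shunt array 1 and 0.36 without atrial shunt array 3. The sham chambers differed by 0.31 ± 0.20, atrium minus ventricle (95% interval -0.13 to 0.75), although the atrial arrays all lay above the ventricular ones, the nearest only just.

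Tnc, a hexameric matrix protein of developing and injured tissue, was under the minimum with a mean of 2.88. It had 3.31, 2.88 and 2.63 on the atrial shunt arrays, against 2.85, 2.76 and 2.69 on the atrial sham arrays, and 3.02, 2.99 and 2.84 on the ventricular shunt arrays, against 2.85, 2.99 and 2.74 on the ventricular sham arrays. The groups overlapped. Its probe set lay in the lowest 9.24% of the array, and no more is read from it here.

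Of the 9 measured genes 7 were above the minimum and entered the fit; each of their 4 group means was above 4.01, so none passed through 1 group alone. In the ventricle none of these 7 was called between shunt and sham rats by limma, and none reached an unadjusted p under 0.05 on its representative probe set; the second Sparc probe set did (unadjusted p = 0.00634). Of all 18625 probe sets tested, 0.107% were called in the ventricle, and 2732 had an unadjusted p under 0.05. The median ventricular difference of the 7 was 0.11, against 5.67e-05 over the 10606 genes represented, with 6 of 7 above 0. Shunt and sham arrays did not overlap for 1 of the 7, Sparc, while 20.8% of all probe sets had no overlap.

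In the atrium 3 of the 7 (Thbs4, Ccn2 and Cthrc1) were past the threshold, all higher in shunt rats, beside 1.3% of all probe sets called, 0.478% higher and 0.827% lower. The median difference of the 7 was 0.37, against -0.0084 over all genes, and the arrays of 4 of the 7 did not overlap, beside 20.7% of all probe sets. Because atrial values were taken to have chosen the genes, nothing is read from these counts. The count was 1, which was Thbs4, without atrial shunt array 1 or 2 or any one of the 3 atrial sham arrays. It was also 1, again Thbs4, without ventricular shunt array 3 and without ventricular sham array 1, and it was 4 without atrial shunt array 3. Of the 12 fits that left out 1 array, Thbs4 was past the threshold in 12, Ccn2 in 5 and Cthrc1 in 1. For Cthrc1 this was the fit without atrial shunt array 3. No gene on the array was called for a difference between the atrial and the ventricular effect (0% of 18625 probe sets, with 1229 at an unadjusted p under 0.05).

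**Figure D2:**
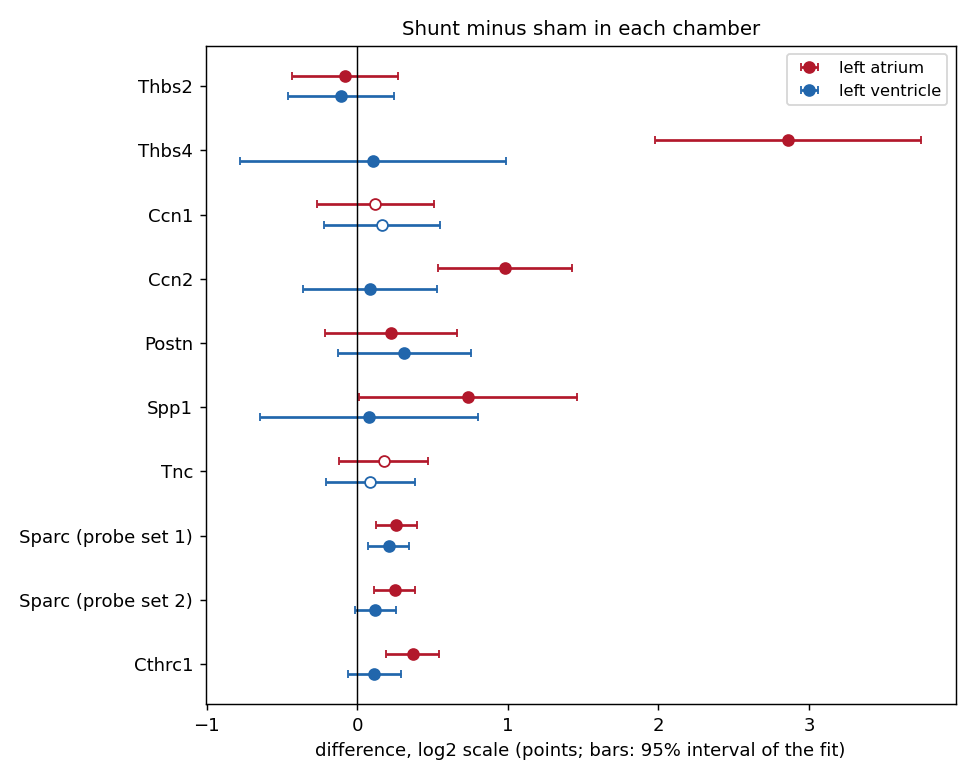
Shunt minus sham on the log2 scale (horizontal axis) for each probe set of the 9 genes, with the 95% interval of the limma fit, the left atrium in red above the left ventricle in blue. Open points are genes under the minimum, from a fit without it. Thbs4 (2.86) and Ccn2 (0.98) had the largest atrial differences of the set, and the ventricular intervals of all probe sets but 1 of Sparc included 0.

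Between the chambers of sham rats 2 of the 7, Ccn2 and Cthrc1, were past the threshold, both higher in the atrium, beside 47.2% of all probe sets, 25.2% higher and 22% lower. The arrays of 4 of the 7 (Ccn2, Postn, Sparc and Cthrc1) did not overlap between the chambers, beside 61.2% of all probe sets. In shunt rats 4 of the 7 (Thbs4, Ccn2, Sparc and Cthrc1) were past the threshold, all higher in the atrium, beside 41.9% of all probe sets, and 4 of the 7 had no overlap, beside 49.3%. Both chamber contrasts share atrial arrays with the values taken to have chosen the genes, so nothing is read from these counts.

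**Figure D3:**
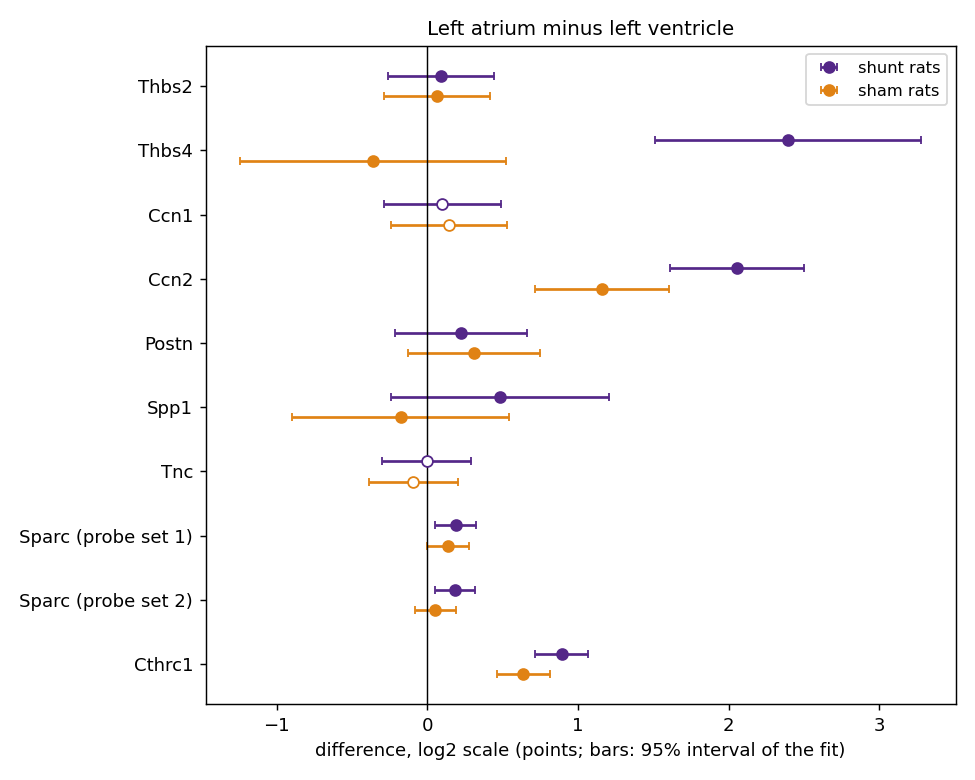
Left atrium minus left ventricle on the log2 scale (horizontal axis) for each probe set of the 9 genes, with the 95% interval of the limma fit, shunt rats in purple above sham rats in orange. Open points are genes under the minimum, from a fit without it. For Ccn2 (2.05 in shunt rats, 1.16 in sham rats) and Cthrc1 (0.89 and 0.64) both intervals lay above 0, and for Thbs4 only that of the shunt rats did.

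For each of the 3 members whose group means spanned at least 1, the genes with the nearest profile were taken. Nearness was the root mean square difference over the 12 arrays, each gene centred on its own mean. Because the genes were chosen by their profile, what they share with the member is a description and no result. For Thbs4 these were Col8a1, a short-chain network collagen, at 0.616, Meox1, a transcription factor of activated fibroblasts, at 0.749, and Ltbp2, a matrix protein of the latent TGF-beta binding family, at 0.750. Col8a1 had 8.87, 8.18 and 6.92 on the atrial shunt arrays, against 6.57, 6.02 and 6.32 on the atrial sham arrays, and 7.62 on ventricular shunt array 2. Ltbp2 had 7.36, 7.21 and 6.48 on the atrial shunt arrays, against 5.68, 5.76 and 5.72 on the atrial sham arrays. Meox1 had 5.59, 5.70 and 4.60 on the atrial shunt arrays, against 4.22, 4.18 and 4.14 on the atrial sham arrays. As for Thbs4, the atrial shunt arrays of all 3 lay above the atrial sham arrays, with array 3 the lowest, but ventricular shunt array 2 of Col8a1 lay above its atrial shunt array 3. The 0.616 of the nearest profile exceeded the SD of Thbs4 in 3 of its 4 groups.

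Ccn2 had closer neighbours. These were Gpc4, a heparan sulphate proteoglycan of the cell surface, at 0.258, Nppb, the load-responsive natriuretic peptide BNP, at 0.263, and Aif1l, an actin-binding protein, at 0.283. Gpc4 had 8.87, 8.84 and 8.53 on the atrial shunt arrays, against 8.18, 8.07 and 8.10 on the atrial sham arrays, and its ventricular difference, shunt minus sham, was -0.05 ± 0.10. Nppb had 12.76, 12.88 and 12.78 on the atrial shunt arrays, against 12.32, 11.98 and 12.02 on the atrial sham arrays, and its ventricular difference was 0.47 ± 0.15. The ventricular difference of Aif1l was 0.28 ± 0.14. All 3 neighbours shared with Ccn2 an atrium above the ventricle in both operations. For Cthrc1 the nearest profiles were Prss23 (0.0858), Pkig (0.0918) and Ctps1 (0.0940).

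**Figure D4:**
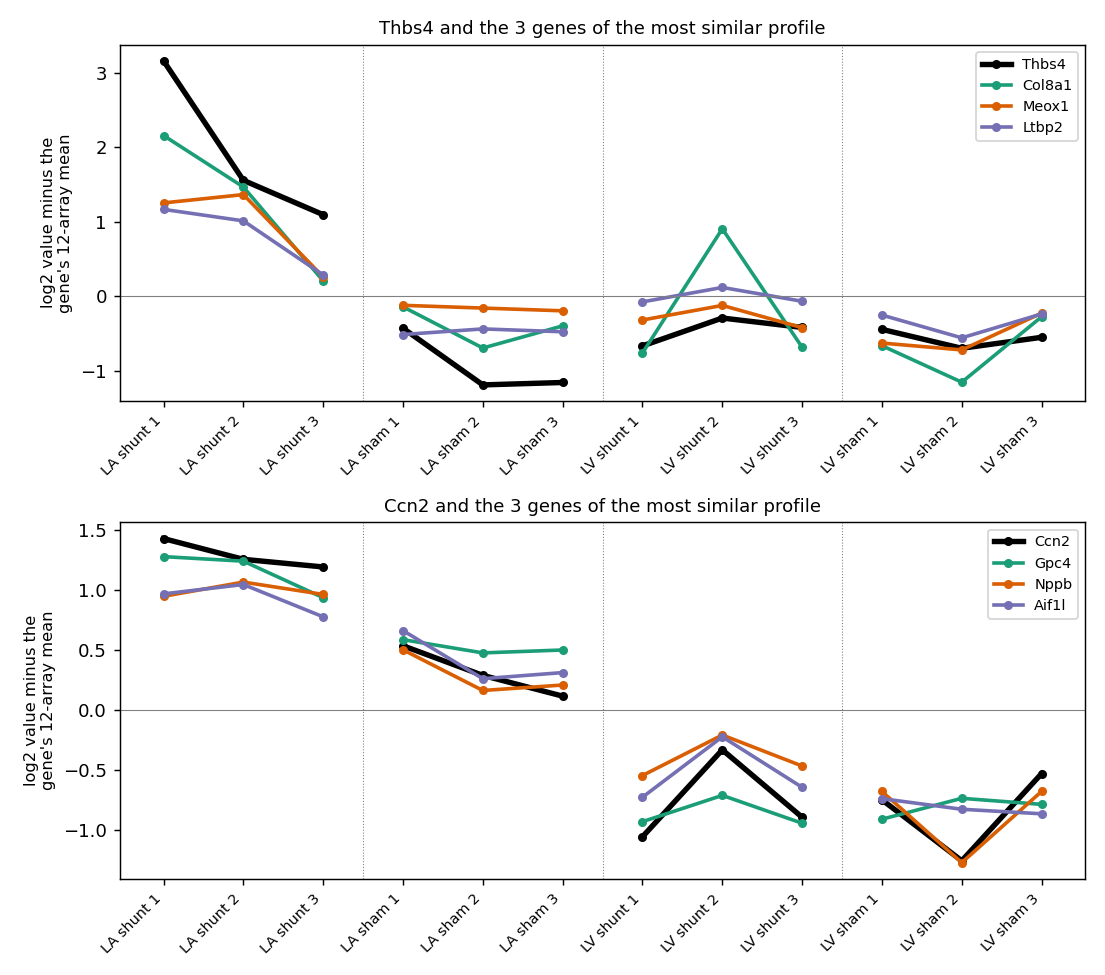
Log2 value minus the gene's own mean over 12 arrays (vertical axis) on each array (horizontal axis) for Thbs4 (upper panel) and Ccn2 (lower panel), black, with their 3 nearest genes in colour. Thbs4 and its neighbours were high on the atrial shunt arrays, with array 3 the lowest of them and Col8a1 also high on ventricular shunt array 2. Ccn2 and its neighbours formed a step from atrium to ventricle with a further step between atrial shunt and atrial sham. Unlike Ccn2, Nppb and Aif1l also lay higher on the ventricular shunt than on the ventricular sham arrays.

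No other matricellular gene listed was called after the shunt. Of 25 such genes, 14 were above the minimum, and none was called in either shunt comparison. An unadjusted p under 0.05 was reached by 6 in the atrium and 3 in the ventricle, beside 2838 and 2732 of 18625 probe sets. The median difference of the 14, shunt minus sham, was 0.10 in the atrium and 0.04 in the ventricle. Ccn5, a CCN protein that lacks the family's C-terminal domain, had 6.67, 6.54 and 6.26 on the atrial shunt arrays, against 6.05, 5.83 and 5.76 on the atrial sham arrays, and 4.22, 4.62 and 4.61 on the ventricular shunt arrays, against 3.996, 3.39 and 3.94 on the ventricular sham arrays. Its shunt arrays lay above its sham arrays in both chambers, and its differences of 0.61 ± 0.17 in the atrium (adjusted p = 0.116) and 0.71 ± 0.17 in the ventricle (adjusted p = 0.11) did not pass. Tgfbi, a periostin relative, differed by -0.39 ± 0.09 in the atrium (adjusted p = 0.0514) and by -0.02 ± 0.09 in the ventricle (adjusted p = 0.929).

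Between the sham chambers 10 of the 14 genes were called higher in atrium and none lower, beside 25.2% and 22% of all probe sets, with a median difference of 0.70 against 0.02 over all genes. Ccn5 was higher in atrium than in ventricle by 2.11 ± 0.17 (adjusted p = 1.45e-06), Fbln1, a fibulin of elastic matrix, by 1.33 ± 0.14, Mgp, an inhibitor of calcification, by 1.13 ± 0.07, and Thbs3 by 0.97 ± 0.09. Of the fibroblast markers 7 of 8 were called higher in sham atrium, with a median of 0.68 and none lower. The mean of these 8 markers was 10.56 to 10.60 on the atrial sham arrays, against 9.87 to 9.97 on the ventricular sham arrays. The part of fibroblast number in these chamber differences, and in those of Ccn2 and Cthrc1, was not tested.

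Among 17 of 21 listed receptors above the minimum, 1 was called in the atrium, lower in shunt rats, beside 0.827% of all probe sets called lower. Cacna2d1, the calcium channel subunit that binds thrombospondins, had 6.86, 6.92 and 6.92 on the atrial shunt arrays, against 7.27, 7.31 and 7.23 on the atrial sham arrays. It fell by 0.37 in shunt atrium (SE 0.06, adjusted p = 0.0181), and its ventricular difference was -0.16 ± 0.06 (adjusted p = 0.29). The atrial call was lost without atrial shunt array 1 or 2 or any one atrial sham array, with an adjusted p up to 0.0893. No receptor was called in the ventricle, where 5 had an unadjusted p under 0.05, beside 2732 of 18625 probe sets. Stab1, a scavenger receptor that clears Sparc, differed by 0.46 ± 0.09 there (adjusted p = 0.0722). Between the sham chambers 6 of the 17 receptors were called higher and 3 lower in the atrium, near the 25.2% and 22% of all probe sets, among them Cd44, which binds osteopontin (1.33 ± 0.11), and, lower, Itga9, part of a tenascin and osteopontin receptor (-2.14 ± 0.17), and Cd36, a thrombospondin receptor that also takes up fatty acids (-1.22 ± 0.08).

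Of the TGF-beta system 15 of 18 listed genes were above the minimum. In the atrium 1, Ltbp2, was called, beside 0.478% of all probe sets called higher. It rose by 1.30 ± 0.18 in shunt atrium (adjusted p = 0.00667), and its ventricular difference was 0.34 ± 0.18 (adjusted p = 0.409). The atrial call of Ltbp2 held without each single array, at differences of 1.12 to 1.56. Smad7, an inhibitor that TGF-beta signalling itself induces, differed by 0.54 ± 0.17 in the atrium (adjusted p = 0.163) and by 0.17 ± 0.17 in the ventricle (adjusted p = 0.694). None was called in the ventricle, with 2 at an unadjusted p under 0.05, beside 2732 of 18625 probe sets.

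Of the other YAP and TEAD targets none was called higher after the shunt. Of 18 of 21 listed genes above the minimum, 1 was called in the atrium and it was lower, beside 0.827% of all probe sets called lower. This was Igfbp3, an IGF-binding protein, with 5.92, 6.17 and 6.11 on the atrial shunt arrays, against 7.12, 7.40 and 7.36 on the atrial sham arrays. It fell by 1.23 in shunt atrium (SE 0.13, adjusted p = 0.00228), and its ventricular difference was -0.59 ± 0.13 (adjusted p = 0.0949). The atrial call of Igfbp3 held without each single array. Ankrd1, a stretch-responsive myocyte gene and TEAD target, differed by 0.26 ± 0.07 in the atrium (adjusted p = 0.125) and by 0.26 ± 0.07 in the ventricle (adjusted p = 0.154). Nt5e differed by 0.43 ± 0.11 in the atrium (limma adjusted p = 0.0722) and by 0.25 ± 0.11 in the ventricle (limma adjusted p = 0.305). In the atrium 3 targets were higher and 3 lower at an unadjusted p under 0.05, beside 2838 of 18625 probe sets. The median difference of the 18 was 0.10 in the atrium and -0.02 in the ventricle. No target was called in the ventricle, with 7 at an unadjusted p under 0.05, beside 2732 of 18625 probe sets.

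The Atf6 and ER chaperone genes, which Thbs4 is known to induce in mouse heart, were all 21 above the minimum, and none was called in either shunt comparison. An unadjusted p under 0.05 was reached by 1 in the atrium and 2 in the ventricle, beside 2838 and 2732 of 18625 probe sets. The median difference of the 21 genes, shunt minus sham, was -0.07 in each chamber. Their mean was 8.38 to 8.46 on the atrial shunt arrays, against 8.43 to 8.46 on the atrial sham arrays, and 7.81 to 7.94 on the ventricular shunt arrays, against 7.85 to 7.97 on the ventricular sham arrays. Ddit3, the ER stress factor CHOP, differed by 0.41 ± 0.09 in the atrium (adjusted p = 0.0502), and the chaperone Hyou1 by -0.32 ± 0.07 in the ventricle (adjusted p = 0.0834). Between the sham chambers 18 of the 21 were called higher and 1 lower in the atrium, beside 25.2% and 22% of all probe sets, with a median of 0.61.

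The structural partners, among them fibrillar collagens, Fn1 and small proteoglycans, were all 14 above the minimum, and none was called in either shunt comparison. In the atrium 3 and in the ventricle 4 had an unadjusted p under 0.05, beside 2838 and 2732 of 18625 probe sets. Bgn (biglycan), a collagen-binding proteoglycan, had 10.29, 10.19 and 9.78 on the atrial shunt arrays, against 9.50, 9.48 and 9.42 on the atrial sham arrays, a difference of 0.62 ± 0.14 without overlap (adjusted p = 0.0558). Plod2, which prepares collagen for cross-linking, differed by 0.44 ± 0.12 in the atrium (adjusted p = 0.12) and by 0.40 ± 0.12 in the ventricle (adjusted p = 0.19). The median difference of the 14 was 0.12 in the atrium and 0.10 in the ventricle.

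**Figure D5:**
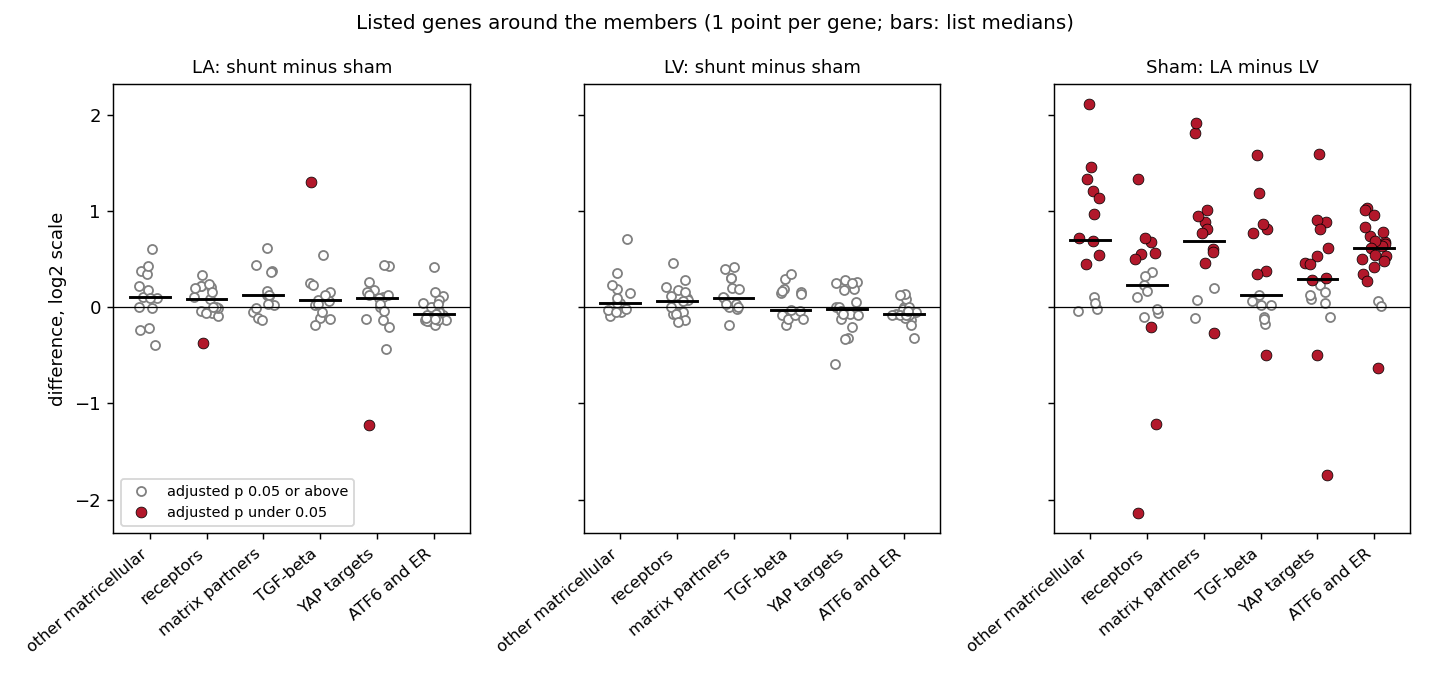
Difference on the log2 scale (vertical axis) of each listed gene above the minimum, 1 point per gene, in 6 gene lists, for shunt minus sham in atrium, shunt minus sham in ventricle, and atrium minus ventricle in sham rats; filled points have an adjusted p under 0.05 and bars are list medians. In the shunt panels 3 genes (Ltbp2, Cacna2d1 and Igfbp3) are filled in atrium and none in ventricle, while many are filled between the sham chambers.

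Markers of other cells were read beside the atrial differences of Thbs4, Ccn2 and Cthrc1. Of the activated fibroblast markers, 6 of 8 were above the minimum (Cilp had no probe set of a single symbol and Comp was too low). In shunt atrium 2, Ltbp2 and Meox1, were called higher, beside 0.478% of all probe sets. Lox (0.37 ± 0.14), Fap (0.21 ± 0.08) and Acta2 (0.09 ± 0.11) were not called, nor was Fn1, which went the other way (-0.11 ± 0.10). Without single arrays Meox1 passed in 1 of 12 fits, the one without atrial shunt array 3. The mean of these 6 was 6.33 to 6.87 on the atrial shunt arrays, against 6.13 to 6.19 on the atrial sham arrays, and 6.14 to 6.33 on the ventricular shunt arrays, against 5.87 to 6.05 on the ventricular sham arrays. General fibroblast markers gave 0 of 8 called, with a mean of 10.35 to 10.67 on the atrial shunt arrays, against 10.56 to 10.60 on the atrial sham arrays. Ventricular myocyte markers were called higher in shunt atrium for 2 of 5, Myh7 (1.63 ± 0.18) and Myl3 (1.13 ± 0.21), beside 0.478% of all probe sets. Myl2 (0.71 ± 0.19) and Hey2 (0.36 ± 0.09) were not called, and Irx4 went the other way (-0.32 ± 0.10, not called). The mean of the 5, Irx4 included, was 5.92 to 6.34 on the atrial shunt arrays, against 5.19 to 5.59 on the atrial sham arrays. Myh7 passed without each single array, and Myl3 did not without atrial shunt array 1 or 2 or atrial sham array 3. Their part in the Thbs4, Ccn2 and Cthrc1 values was not tested.

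Of the tendon and valve markers, 4 of 7 were above the minimum and none was called; their mean was 5.61 to 5.83 on the atrial shunt arrays, against 5.54 to 5.65 on the atrial sham arrays, and Tnmd, which defines tendon cells, was under the minimum. Mesothelial markers gave 1 of 6 called, Krt19, which fell by 0.63 on the log2 scale in shunt atrium, beside 0.827% of all probe sets called lower. Among the 12 fits that left out an array, this call was kept only in the one without atrial shunt array 3. Of the 6 markers, 1, Wt1, had a difference above 0 (0.27 ± 0.10, not called). The mean of the mesothelial markers was 6.55, 6.52 and 5.94 on atrial shunt arrays 1, 2 and 3, against 6.45 to 6.68 on the atrial sham arrays. Smooth muscle (4 of 5 above the minimum) and endothelial markers (5 of 6) had none called in the atrium.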

How the data were processed

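The deposited values are RMA values on a log2 scale, from 2.05 to 14.29, per the submitters' processing notes; the RMA version, and which arrays were normalized together, are not given in the sources used here. RMA puts all arrays on 1 distribution, so each value is relative to the rest of its array. Each array took biotinylated cRNA from 10 µg of RNA, per the labels. No arrays held identical values. The model was limma 3.58.1's lmFit with eBayes (R 4.3.3), with 1 mean per group over 12 arrays, no block, 8 residual degrees of freedom and a prior of 3.68. Probe sets at or above the 40th percentile of the mean (4.01) were tested, 18625 of 31099, of which 57 were controls. P-values are two-sided, Benjamini-Hochberg adjusted over these, with a threshold of 0.05 for a call. Where several probe sets of a gene passed, the one of highest mean stood for it, in lists too. The shares printed beside counts of genes are of all probe sets. Over the 10606 genes represented, 0.585% were called higher and 0.811% lower after the shunt in the atrium. Between the sham chambers 27.6% of these genes were called higher and 22.6% lower in the atrium. Symbols were updated by Entrez identifier to the GRCr8 table. Levels of different probe sets are not compared. Errors are SEs unless an SD is named. P-values measure the spread between pools.

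The members and gene lists were chosen with earlier results of these data known, and some lists share genes (Calr, Tgfb2, Ltbp2, Fn1, Acta2, Lox, Comp, Fmod and several collagens). The genes named were all members, the listed genes called in a shunt comparison, up to 4 by smallest p per list and comparison (filled to 2), and the 3 nearest profiles of each member whose group means spanned at least 1; the text names part of these, and the atrial values of Thbs3 and Ankrd1 were added after they were seen. The fit was tested on simulated data. Alternatives were no filter, the 60th percentile, further quantile or cyclic loess normalization, array weights, a robust prior with a trend, fitting the compared groups alone, a replicate block, averaging all probe sets of a gene, the hexokinase gap as a covariate, and leaving out each array. Protein sequence motifs were not analysed here.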

Additional observations from a re-analysis of the deposited data

How the results depend on the processing

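With 3 pools per group, each difference is known only to its interval, and Ccn1 and Tnc, under the minimum of 4.01, were not tested. In the ventricle, the comparison that was tested for these genes, 153 of 160 values of single genes under the alternatives kept their direction and their side of the threshold, and 7 turned sign. Signs turned in 2 of 160 values of the atrial difference, 9 of 153 of the difference of the effects, 3 of 160 of the sham chambers and 2 of 160 of the shunt chambers. In the atrium 3 genes of the set were past the threshold between shunt and sham rats; the count was 1 with no filter, 1 with only the atrial arrays fitted, which was Ccn2, and 1 with the replicate block over all groups, and it ran from 1 to 4 when single arrays were left out. Between the sham chambers the count was 2, 1 with the 60th percentile filter, which left Cthrc1 out, and 3, with Postn, with only the groups compared (Postn at 0.31) and with the hexokinase covariate (Postn at 0.44). For the difference of the effects it was 0, and 0 to 1 without single arrays; the 1 was Thbs4 without atrial shunt array 3, at 3.18. Apart from the ventricle these counts are descriptions.

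Thbs2 between the sham chambers was -0.012 after further quantile normalization and ran from -0.0022 to 0.15 without single arrays, and in the ventricle 0.0067 with the hexokinase covariate and -0.21 to 0.10 without single arrays. Ccn2 in the ventricle was -0.030 with array weights and -0.13 to 0.24 without single arrays, with the sign turned without shunt array 2 or sham array 2 (-0.12). Spp1 was 0.049 between the sham chambers with the covariate, and in the ventricle -0.031 to 0.22 without single arrays, negative without shunt array 2 or sham array 3 (-0.018). Fitted on the atrial arrays alone, of the 7 listed genes called in the atrium, Igfbp3 and Myh7 passed, and Ltbp2 (adjusted p = 0.0826), Cacna2d1, Myl3, Meox1 and Krt19 did not. The causes were not tested. Whether atrial and ventricular arrays of equal replicate number share rats was not settled. Deviations correlated at -0.24, 0.44 and 0.44 between atrial and ventricular shunt arrays 1, 2 and 3, and at 0.23, 0.26 and 0.07 between the sham arrays. Atrial shunt arrays 2 and 3 and each atrial sham array correlated best with the ventricular array of their own number. The main fit had no block, and the other block, within an operation, left the counts at 3, 0, 0, 2 and 4.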
